A study of Mus musculus with 6 samples.

Results

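The genes described here are 54 protein-coding genes that RAW264.7 macrophages expressed well when grown alone and at a lower level after coculture with Tsc2-null cells, after 18 starts of gene names, such as Fos, Dusp and Slc, were set aside. They were chosen by measured values. A member had a mean of at least 10 CPM in macrophages alone (a gene's count as a share of the library's total count, in parts per 1000000) and a mean in coculture of at most 0.67 times that. Of 8472 protein-coding genes at or above 10 CPM alone, in a table of 54532 genes, 64 met the ratio limit, which is 0.755%. 10 of the 64 were left out by the start of their name (Fosb, Dusp1, Fos, Slc5a3, Klf2, Mrps6, Slc6a12, Itga4, Cxcl2 and Atp6v0d2), leaving the 54. Because the falls themselves chose the genes, their differences between the groups are given as descriptions with no test.

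RAW264.7 is a macrophage-like mouse cell line, and the study asked how cells without Tsc2 affect the polarization of macrophages in the setting of lymphangioleiomyomatosis. The cocultured group comprised 3 libraries of RAW264.7 cells kept for 48 h with Tsc2-null TTJ cells, a line from an angiomyolipoma of a tuberous sclerosis mouse model, and then recovered by FACS. The alone group comprised 3 libraries of RAW264.7 cells grown without TTJ cells and also sorted. All macrophages were labelled WT and both lines were kept in DMEM with 10% FBS. The macrophages are 1 established line and the TTJ cells another, and the labels do not say whether libraries A, B and C of a group came from separate cultures, so the spread between them may be technical.

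Total counts per library were 14329487 to 16976782 in coculture and 14621832 to 17358280 alone. All 10 macrophage markers exceeded 1 CPM in both groups, with a summed level of 11552 to 11755 CPM in coculture and 10914 to 10936 CPM alone. Of 15 renal and simple epithelial markers, 10 exceeded 1 CPM in coculture and 0 alone. Their sum was 359 to 417 CPM in coculture and 0 to 0.115 CPM alone, and Epcam, Cldn7, Lhx1 and Umod had no counts in coculture. Of 20 mesenchymal and smooth muscle markers, 6 exceeded 1 CPM in coculture and 1 alone. Their sums were 1577 to 1648 CPM in coculture and 995 to 1051 CPM alone, and Col3a1, Pdgfra and Thy1 had no counts in coculture. The sum alone came almost wholly from that 1 marker, so it does not measure mesenchymal RNA. No marker of 12 for T, B and NK cells reached 1 CPM in either group, with sums of 0.236 to 0.575 CPM in coculture and 0.205 to 0.359 CPM alone. 688 genes were absent alone and reached 10 counts in coculture, and they took 0.282% to 0.314% of the counts in coculture. The part of other cells' RNA in the falls described here, and in the genes given below as higher in coculture, was not tested.

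Macrophages read amines, lipids and hormones through receptors coupled to G proteins, whose signals are shortened by RGS proteins and, on the cyclic AMP arm, by phosphodiesterases. Many stimuli also switch on immediate early genes within minutes, among them the AP-1 subunits Fos and Fosb, the phosphatase gene Dusp1 and, slightly later, Atf3, Btg2 and Rgs2. Other genes of the set belong to pathways that cells use under stress, such as the p53 response and the ATF4 response to amino acid shortage.

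The 54 genes had a median ratio of coculture to alone of 0.621, and all protein-coding genes at or above 10 CPM alone had a median of 0.983, with 90% of them between 0.803 and 1.37. 5 members had a ratio of at most 0.5 (Htr1b, Cd83, Fam13c, Atf3 and Kcnj2), 12 lay between 0.5 and 0.6, and 37 lay between 0.6 and the limit. Summed over the members, the level was 2249, 2247 and 2261 CPM in coculture libraries A, B and C, against 3697, 3691 and 3721 CPM in the 3 alone libraries. The sum therefore varied little between libraries of a group, and the coculture sum was 0.608 times that alone. Without Idh1 and Fxyd2, the pair with the highest CPM alone, the sums were 1778 CPM in coculture and 2964 CPM alone. In bulk RNA, fewer cells that carry a transcript and less of it per cell cannot be told apart.

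Every member was below the alone mean in each of the 3 cocultured libraries. The 3 cocultured libraries all lay below the 3 alone libraries for 52 of the 54, against 26.7% of all protein-coding genes at the same floor. One of the exceptions was mt-Co2. edgeR's quasi-likelihood fit to all 12972 genes with enough counts called 54 of the 54 lower at an adjusted p under 0.05, beside 15.2% of all genes tested, while 21.7% of all genes tested were called higher. Since the rule used the same contrast, nothing is read from these member counts. In each single library 39 to 44 members were at or below 0.67 times the alone mean, and 22 were so in all 3, so many members passed on their mean and not in each library.

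**Figure D1:**
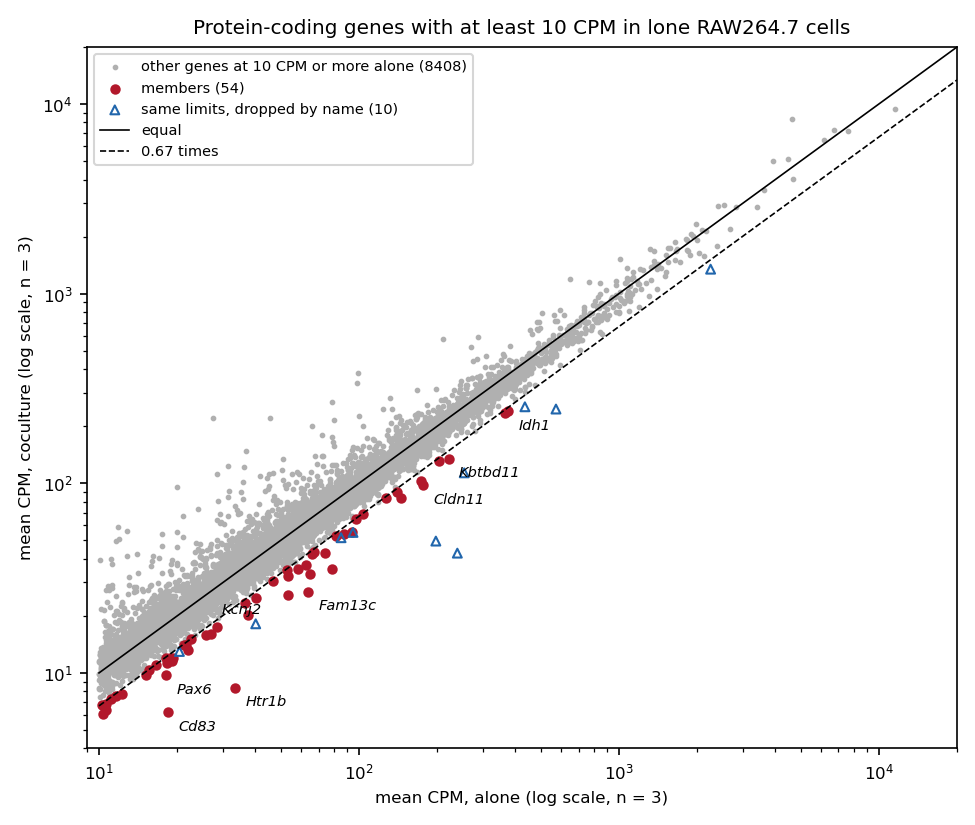
Mean CPM in coculture (vertical axis, log scale) against mean CPM alone (horizontal axis, log scale) for protein-coding genes with at least 10 CPM alone; red points are the 54 members, blue triangles the 10 genes left out by name, grey points the other 8408 genes, and the dashed line marks 0.67 times the alone level. Most members lie just under the dashed line, and Htr1b and Cd83 lie farthest below it among them.

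The members spanned a wide range of levels. Per length, their median was 4.80 FPKM in coculture and 7.78 FPKM alone (fragments scaled to a gene's exonic length and library size). All genes at the same floor had a median of 11.7 FPKM alone. Idh1 was the most abundant per length, with 86.2 ± 3.55 FPKM in coculture and 135 ± 6.3 FPKM alone (SD, n = 3 each), and Pax6 the least, with 0.834 ± 0.00936 FPKM in coculture and 1.55 ± 0.101 FPKM alone. In CPM, 17 members were under 20 alone, 27 were between 20 and 100, and 10 were at or above 100. The median coefficient of variation of a member was 7.86% in coculture and 6.47% alone, against 4.37% in coculture and 4.79% alone for all genes at the floor.

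The sequences just before the transcription start are shown for the members with the lowest ratio among the receptors and the transcription factors, Htr1b and Atf3, and for the 3 members whose promoter held an AP-1 or cyclic AMP response element, Serpinb8, Btg2 and Pax6, because Fosb, an AP-1 subunit, had the lowest ratio of the 64 genes. Each run gives the 250 bases upstream of the RefSeq start (build GRCm38.p6, the strand of the gene), 5′ to 3′, with matches to any of 8 searched motifs in capitals.
Htr1b, chr9:81633833-81634082, minus strand: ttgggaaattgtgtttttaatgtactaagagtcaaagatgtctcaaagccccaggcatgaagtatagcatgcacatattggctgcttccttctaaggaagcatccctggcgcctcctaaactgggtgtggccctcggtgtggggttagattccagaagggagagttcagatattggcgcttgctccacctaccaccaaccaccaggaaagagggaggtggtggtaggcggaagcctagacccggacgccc
Atf3, chr1:191183334-191183583, minus strand: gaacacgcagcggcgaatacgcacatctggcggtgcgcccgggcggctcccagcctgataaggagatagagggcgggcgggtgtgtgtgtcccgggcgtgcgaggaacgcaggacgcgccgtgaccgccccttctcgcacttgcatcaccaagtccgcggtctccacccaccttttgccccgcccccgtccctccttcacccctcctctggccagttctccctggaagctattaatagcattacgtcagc
Serpinb8, chr1:107589756-107590005, plus strand: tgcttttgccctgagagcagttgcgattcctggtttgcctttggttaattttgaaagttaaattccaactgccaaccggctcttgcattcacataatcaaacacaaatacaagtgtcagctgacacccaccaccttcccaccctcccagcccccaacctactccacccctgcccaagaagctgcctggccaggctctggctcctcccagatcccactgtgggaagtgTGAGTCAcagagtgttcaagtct
Btg2, chr1:134079156-134079405, minus strand: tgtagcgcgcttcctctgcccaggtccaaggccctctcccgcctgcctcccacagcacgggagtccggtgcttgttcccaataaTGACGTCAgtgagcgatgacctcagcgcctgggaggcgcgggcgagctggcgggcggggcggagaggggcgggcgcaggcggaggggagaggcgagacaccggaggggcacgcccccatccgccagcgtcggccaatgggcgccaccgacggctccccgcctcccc
Pax6, chr2:105668646-105668895, plus strand: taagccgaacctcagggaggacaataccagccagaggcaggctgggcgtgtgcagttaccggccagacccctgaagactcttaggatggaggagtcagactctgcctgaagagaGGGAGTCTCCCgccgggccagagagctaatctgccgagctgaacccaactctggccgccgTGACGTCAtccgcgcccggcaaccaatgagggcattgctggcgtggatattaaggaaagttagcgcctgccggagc

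The capitals in Serpinb8 are an AP-1 site, TGAGTCA, 23 bases before the start, and a second copy lies 13 bases after the start, beyond the printed run. In Btg2 they are a cyclic AMP response element, TGACGTCA, 166 bases before the start. In Pax6 they are the same element 76 bases before the start and a pair of overlapping NF-kB matches that begin 136 and 135 bases before it. The windows of Htr1b and Atf3 held none of the letters searched, which says nothing about the factors themselves. Only full matches were counted, so near matches such as ttacgtca at the end of the Atf3 run were not.

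39 of the 54 members had at least 1 entry in the RefSeq promoter table, 57 promoters in all, each 250 bases before to 50 bases after a start, and both strands were searched. AP-1 (TGANTCA) was in 1 of the 57 member promoters (1.75%), in 4.58% of promoters of the other genes at the floor and in 7.81% of all promoters of the table. The cyclic AMP response element was in 2 (3.51%), in 3.34% of those of the other genes at the floor and in 1.79% of all. Either element was in 3 (5.26%), against 7.84% and 9.54%, and whether Fosb acts at any of them was not tested. The E-box CACGTG was in 6 (10.5%), against 10.8% and 7.15%, and the NF-kB motif in 7 (12.3%), against 10.5% and 8.46%. The ETS core CCGGAAGT was in 2 (3.51%), against 9.82% and 3.89%, both being the same site in overlapping windows of Plekhg5, and the TATA box TATAAA in 2 (3.51%), against 6.44% and 13.6%. The PU.1 core GAGGAAGT and the SRF CArG box were in 0 of the 57, and in 3.21% and 1.18% of the promoters of the other genes at the floor and 3.20% and 1.63% of all. These motifs overlap in part, since NF-kB matches on opposite strands can share bases, and with 57 promoters a single match is 1.75%, so these shares are descriptions. The median GC content was 63.0% in member promoters, 61.3% in those of the other genes at the floor and 52.7% in all.

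8 members encode receptors or parts of G protein signalling. Htr1b, on chromosome 9 (81628291 to 81633828, mm10), encodes a serotonin receptor that lowers cyclic AMP through Gi and had the lowest ratio of the set. It was at 9.77, 7.99 and 7.3 CPM in coculture libraries A, B and C, against 36, 32.5 and 31.7 CPM in alone libraries A, B and C. The highest cocultured library was thus far below the lowest alone library, and the mean was 8.35 ± 1.27 CPM in coculture and 33.4 ± 2.3 CPM alone (SD, n = 3 each), 4.0-fold lower. Its exons share 852 bases with D430036J16Rik, an antisense gene with 0.271 CPM in coculture and 0.933 CPM alone.

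Of the other 49 amine and lipid mediator receptor genes on the list used, 22 had enough counts for the test, of which 9 were called higher and 4 lower (median log2 fold change 0.19, against 0.00 over all genes tested). Among them Lpar2, a lysophosphatidic acid receptor, was higher, at 6.77 ± 1.7 CPM in coculture and 2.34 ± 0.586 CPM alone (log2 fold change 1.53, SE 0.23, edgeR adjusted p = 7.20e-06). Adora2b, a receptor for adenosine, was also higher, at 8.62 ± 1.24 CPM in coculture and 3.75 ± 0.752 CPM alone (log2 fold change 1.2, SE 0.18, edgeR adjusted p = 9.04e-06). Without coculture library C the count of lower receptor genes was 2.

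Rgs1 and Rgs2 encode GTPase activators that switch G protein signals off. Rgs1 was at 66.8, 56.6 and 42.6 CPM in coculture, against 94.2, 106 and 82.6 CPM alone. Rgs2 was at 97.6, 92.5 and 80 CPM in coculture, against 145, 151 and 125 CPM alone. For both genes all cocultured libraries lay below all alone libraries. Library C was the lowest in both groups, but the letters are not known to match between the groups. The pair lies on chromosome 1 (Rgs2 at 143999338 to 144004161, Rgs1 at 144242296 to 144249242, mm10), 238 kb apart, with 1 protein-coding gene between them that was under 10 CPM alone. Of 22 other RGS and G protein subunit genes tested, 7 were called higher and 1 lower (median log2 fold change 0.09). Among those called that reached 5 CPM, the largest changes were in Rgs3, at 18.3 ± 2.69 CPM in coculture and 11.8 ± 0.943 CPM alone (edgeR adjusted p = 1.45e-04), and the Gq-family subunit Gna11, at 30.2 ± 1.53 CPM in coculture and 19.6 ± 3.69 CPM alone (edgeR adjusted p = 3.87e-05), both higher.

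Pde4b, which degrades cyclic AMP, was at 11.3, 11.4 and 12.1 CPM in coculture, against 18.3, 19.3 and 19.7 CPM alone, with little spread in either group. Its relatives Pde4a and Pde4d had 45.1 ± 2.31 and 7.48 ± 0.564 CPM in coculture, against 42 ± 3.69 and 9.23 ± 0.90 CPM alone (SD, n = 3 each), and neither passed the test (edgeR adjusted p = 0.30 and 0.10). Plcb4, a phospholipase C driven by Gq, averaged 83.5 ± 3.33 CPM in coculture and 127 ± 5.3 CPM alone. Akap7, an anchor for protein kinase A, averaged 6.81 ± 1.13 CPM in coculture and 10.3 ± 0.891 CPM alone. Chrnb2, a subunit of neuronal nicotinic acetylcholine receptors, averaged 10.3 ± 1.53 CPM in coculture and 15.6 ± 0.538 CPM alone. Its exons share 1365 bases with Adar on the opposite strand, which had 295 CPM in coculture and 251 CPM alone. The sources used here do not say if strand was used in counting, and over those bases reads of the 2 genes cannot be told apart. Of 24 other genes on the list of ERK pathway feedback and target genes, the list that holds Pde4b, 15 were called higher and 3 lower (median log2 fold change 0.41). The proto-oncogene Myc was at 29.7 ± 2.18 CPM in coculture and 1.61 ± 0.405 CPM alone (log2 fold change 4.19, SE 0.15, edgeR adjusted p = 2.52e-17), and the ETS factor Etv4 at 6.08 ± 0.788 CPM in coculture and 0.824 ± 0.395 CPM alone (edgeR adjusted p = 7.53e-09).

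**Figure D2:**
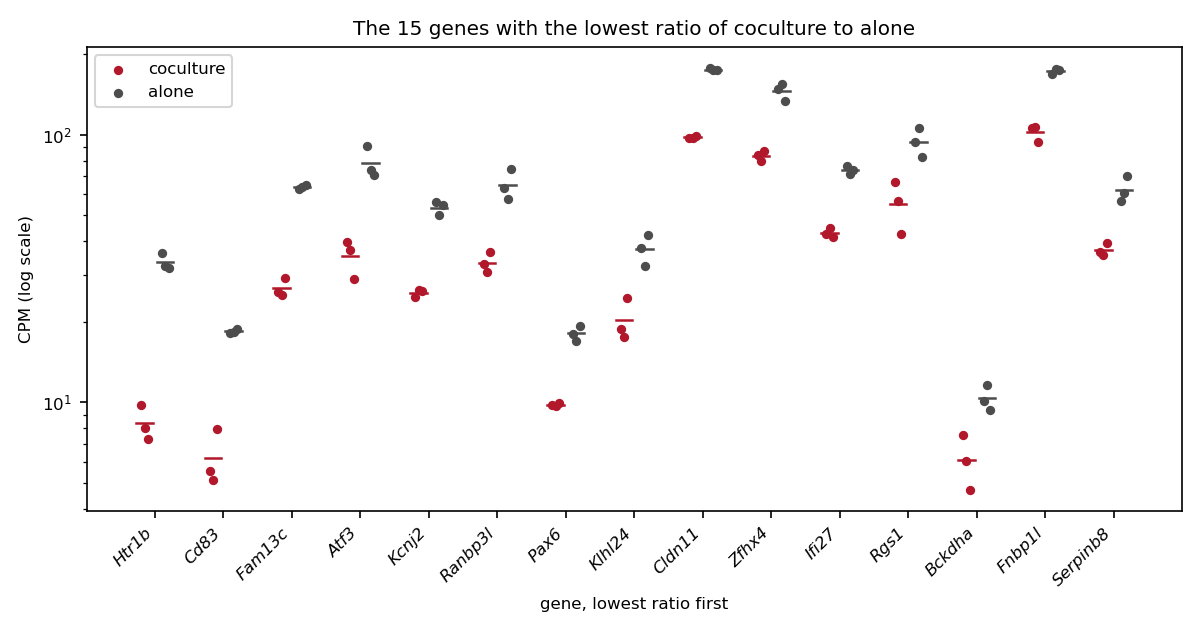
CPM (log scale) of the 15 members with the lowest ratio of coculture to alone, with red points for the 3 cocultured libraries, grey points for the 3 alone libraries and a bar at each mean. The groups do not overlap for any of the 15, and the gap is widest for Htr1b and Cd83.

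7 members encode surface or membrane proteins. Cd83, on chromosome 13, is a surface protein of mature dendritic cells and other activated antigen-presenting cells. It was at 5.51, 5.11 and 7.95 CPM in coculture, against 18.2, 18.3 and 18.7 CPM alone. The alone libraries lay within 1 CPM of one another, and every cocultured library was under 8 CPM, a mean ratio of 0.336. Of 21 other dendritic cell and costimulatory genes tested, 14 were called higher and 4 lower (median log2 fold change 0.47). Cd24a, a glycosylated surface protein, was higher, at 40.7 ± 2.28 CPM in coculture and 1.99 ± 0.232 CPM alone (log2 fold change 4.34, SE 0.13, edgeR adjusted p = 3.18e-19). Itgax, which encodes the integrin CD11c, was at 14.3 ± 1.52 CPM in coculture and 2.49 ± 0.517 CPM alone (edgeR adjusted p = 6.91e-12). Cd83 therefore stood below its alone level on a list whose called genes were mostly higher. These list counts stand beside the epithelial and mesenchymal markers given above, whose part in them was not tested.

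Kcnj2, on chromosome 11, encodes the inward rectifier potassium channel Kir2.1. It was at 24.7, 26.2 and 26.2 CPM in coculture, against 55.9, 50 and 54.6 CPM alone. The groups were tight and well apart, 2.08-fold lower in coculture. Cldn11, a claudin of tight junctions in myelin and testis, was at 97.6, 97.2 and 99.3 CPM in coculture, against 178, 175 and 175 CPM alone. Its libraries were the closest to one another among the abundant members. Fxyd2, which modulates the sodium pump in kidney, was at 219.9, 237 and 248 CPM in coculture, against 371, 355 and 368 CPM alone.

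Abca1, which exports cholesterol to apolipoprotein A-I and responds to the oxysterol receptor LXR, averaged 17.6 ± 1.43 CPM in coculture and 28.3 ± 0.256 CPM alone. Abcg1, another cholesterol exporter controlled by LXR, was above the ratio limit, with 146 ± 1.79 CPM in coculture and 184 ± 6.18 CPM alone (edgeR adjusted p = 1.37e-06). Ptchd1, a membrane protein with a patched domain, averaged 11.2 ± 1.9 CPM in coculture and 18.2 ± 1.35 CPM alone. Tmem143, a transmembrane protein, averaged 12 ± 0.897 CPM in coculture and 18.7 ± 0.849 CPM alone.

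9 members act in transcription or chromatin. Atf3, a stress-induced bZIP factor on chromosome 1 that pairs with other AP-1 and ATF proteins, was at 39.8, 37.1 and 28.9 CPM in coculture, against 91.3, 73.8 and 70.9 CPM alone. Library A was the highest and library C the lowest in both groups, and the groups did not overlap. Fosb, Dusp1 and Fos, immediate early genes left out by name, showed the same order of libraries. Klf2 and Cxcl2, also left out by name, did not. Over all genes, libraries of the same letter did not deviate together. Fosb was at 63.3, 43.4 and 21.8 CPM in coculture, against 278, 237 and 202 CPM alone. Dusp1 was at 63.6, 54.1 and 31.1 CPM in coculture, against 225, 211 and 157 CPM alone. Fos was at 292, 265.0 and 182 CPM in coculture, against 612, 585 and 522 CPM alone. The spread within coculture was thus wide for Fosb, Dusp1 and Fos. Among the members, 4 of 54 (7.41%) were highest in A and lowest in C in both groups, Atf3, Traf1 and Htr1b among them, against 2.88% of all protein-coding genes at the floor.

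Btg2, an antiproliferative protein induced by p53 and by mitogens, was at 13.5, 13.5 and 15.1 CPM in coculture, against 22.3, 21.9 and 19.5 CPM alone. Library C was the highest in coculture and the lowest alone, and the groups did not overlap. Btg2, Atf3, Rgs1 and Rgs2 are on a list of 45 immediate and delayed early genes. Of the 41 others, 22 were called higher and 7 lower (median log2 fold change 0.33), and DESeq2 called 22 higher and 4 lower. Myc was among those higher, and so was Cyr61, a matricellular protein, at 11.9 ± 1.48 CPM in coculture and 1 count in the 3 alone libraries together. Among the called early genes, more were thus higher in the cocultured libraries than lower. The part of the epithelial and mesenchymal RNA described above in these calls was not tested.

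Pax6, a developmental factor of eye and brain, was at 9.77, 9.65 and 9.9 CPM in coculture, against 18, 17 and 19.4 CPM alone. Zfhx4, a zinc finger homeodomain factor, was at 84.4, 79.8 and 86.8 CPM in coculture, against 148, 156 and 133 CPM alone. Both are factors known from development and both had groups that lay well apart. Cry2, a repressor of the circadian clock, lay just inside the ratio limit, at 13.3, 14.9 and 16.9 CPM in coculture, against 24.4, 21 and 22.1 CPM alone. Tshz1, a teashirt zinc finger factor, averaged 24.8 ± 3.07 CPM in coculture and 40.1 ± 3.12 CPM alone. Kmt5c, which methylates histone H4, averaged 34.9 ± 3.2 CPM in coculture and 52.8 ± 2.79 CPM alone.

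H2afv encodes a variant of histone H2A and averaged 13.2 ± 1.88 CPM in coculture and 22 ± 1.21 CPM alone. Its near-identical relative H2afz, above the ratio limit, averaged 342 ± 8.81 CPM in coculture and 413 ± 15.3 CPM alone (edgeR adjusted p = 7.85e-06), and reads that fit both could have been split between them. Rarb, a retinoic acid receptor, averaged 7.56 ± 0.575 CPM in coculture and 11.6 ± 1.75 CPM alone. Its exons share 1793 bases with Top2b on the opposite strand, at 159.7 CPM in coculture and 178 CPM alone, so part of its counts may belong to that gene. 5 members had a transcription factor family in the authors' annotation column, 9.26% of the set, against 5.88% of genes at the floor.

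6 members are known from cell death, stress or ubiquitin transfer. Bbc3, which encodes the p53-induced killer PUMA, was at 15.7, 16.9 and 15 CPM in coculture, against 27.6, 24.3 and 25.9 CPM alone. Sesn1, a p53-induced inhibitor of mTORC1 signalling, was at 30.4, 32.2 and 34.3 CPM in coculture, against 49.8, 55.9 and 53.7 CPM alone. Neither gene's groups overlapped. Sesn2, which responds to ATF4 and lay above the ratio limit, averaged 32.1 ± 0.644 CPM in coculture and 42.6 ± 4.28 CPM alone (edgeR adjusted p = 1.46e-04). The third sestrin gene, Sesn3, was higher, at 2.6 ± 0.632 CPM in coculture and 0.0392 ± 0.0339 CPM alone (edgeR adjusted p = 1.41e-08). With Btg2, 3 members were thus on the list of p53 targets. Of its 22 other genes, 9 were called higher and 3 lower (median log2 fold change 0.22). Gdf15, a secreted stress hormone, was higher, at 13.4 ± 0.876 CPM in coculture and 0.863 ± 0.662 CPM alone (log2 fold change 3.91, SE 0.26, edgeR adjusted p = 3.00e-12). Perp, a p53 target of cell junctions, was at 7.54 ± 0.066 CPM in coculture and had no count alone. The cocultured libraries also held the epithelial and mesenchymal markers given above, whose part in the values of Perp, Sesn3 and the list was not tested.

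Traf1, an adaptor of TNF receptor signalling, was at 25.5, 24.9 and 20 CPM in coculture, against 38.6, 35.8 and 35 CPM alone. Traf1 and Cd83 are both NF-kB targets by the list used. Of the 47 others tested, 21 were called higher and 10 lower (median log2 fold change 0.14), and 6 were called lower without coculture library A. The chemokine genes Ccl2 and Cxcl10 were higher. Ccl2 was at 221 ± 14.6 CPM in coculture and 45.4 ± 5.7 CPM alone (edgeR adjusted p = 6.29e-19). Cxcl10 was at 24.3 ± 2.34 CPM in coculture and 8.27 ± 0.84 CPM alone (edgeR adjusted p = 4.50e-11).

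Klhl24, a BTB and kelch protein that brings substrates to a ubiquitin ligase, was at 18.8, 17.5 and 24.6 CPM in coculture, against 37.8, 32.2 and 42.2 CPM alone. Kbtbd11, of the same protein class, was at 116, 128 and 161 CPM in coculture, against 228, 214 and 222 CPM alone. Coculture library C was the highest for both genes, and it still lay below every alone library. Serpinb8, an intracellular inhibitor of serine proteases whose promoter held the AP-1 sites shown above, was at 36.4, 35.5 and 39.6 CPM in coculture, against 56.8, 60.7 and 69.9 CPM alone.

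9 members were placed in a class of kinases, regulators of small GTPases and parts of the cytoskeleton, Fam13c and Wdr91 only loosely. Fam13c, a gene of unsettled function on chromosome 10, was at 26, 25.2 and 29.3 CPM in coculture, against 62.5, 63.8 and 64.9 CPM alone. The groups were far apart, 2.38-fold lower in coculture. Its relative Fam13b, above the ratio limit, averaged 39.8 ± 4.2 CPM in coculture and 54.2 ± 2.11 CPM alone (edgeR adjusted p = 2.36e-05), and Fam13a was under 1 CPM in all 6 libraries. Ranbp3l, a partner of RAN in nuclear export, was at 33, 30.6 and 36.3 CPM in coculture, against 63.1, 57.8 and 74.4 CPM alone. Fnbp1l, an F-BAR protein that links membranes to actin assembly, was at 106, 107 and 94.1 CPM in coculture, against 169, 176 and 174 CPM alone. For both genes every cocultured library was below every alone library. Prkch, the eta form of protein kinase C, lay just inside the limit, at 73.3, 66.2 and 68.4 CPM in coculture, against 105, 105 and 101 CPM alone.

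The other genes of this class had ratios between 0.608 and 0.665. Camk1d, a calcium and calmodulin-dependent kinase, averaged 35.3 ± 0.452 CPM in coculture and 58.1 ± 3.3 CPM alone. Ralgds, an exchange factor for Ral GTPases, averaged 42.2 ± 3.9 CPM in coculture and 66.3 ± 5.19 CPM alone. Plekhg5, an exchange factor for other small GTPases, averaged 7.71 ± 0.813 CPM in coculture and 12.2 ± 0.851 CPM alone. Both exchange factors were therefore lower by like ratios. Wdr91, which acts in endosome maturation, averaged 65.1 ± 2.92 CPM in coculture and 97.8 ± 3.67 CPM alone. Tnni2, a troponin subunit of fast skeletal muscle, averaged 7.33 ± 0.721 CPM in coculture and 11.1 ± 0.534 CPM alone.

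9 members are metabolic genes. Idh1, the cytosolic NADP-dependent isocitrate dehydrogenase, was the most abundant member, at 249, 231 and 238 CPM in coculture, against 353, 379 and 389 CPM alone. Asns, which makes asparagine and is induced by ATF4, was at 127, 137 and 130.2 CPM in coculture, against 197, 187 and 227 CPM alone. Cth, which makes cysteine from cystathionine, lay just inside the limit, at 11.9, 11.8 and 9.42 CPM in coculture, against 16.6, 15.2 and 17.7 CPM alone. The groups did not overlap for any of the 3. Asns and Cth are on the list of ATF4 and unfolded protein response genes, of whose 27 others 10 were called higher and 11 lower (median log2 fold change -0.04). Ddit4, an inhibitor of mTORC1 signalling, was higher, at 24.1 ± 1.04 CPM in coculture and 7.86 ± 2.49 CPM alone (log2 fold change 1.60, SE 0.14, edgeR adjusted p = 1.11e-09). Vldlr, a lipoprotein receptor, was at 21 ± 2.0 CPM in coculture and had no count alone. Whether its RNA came from the macrophages was not tested.

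Bckdha, a subunit of the enzyme that commits branched-chain amino acids to breakdown, was at 7.54, 6.01 and 4.71 CPM in coculture, against 10.1, 11.6 and 9.39 CPM alone. It was among the least abundant members, and coculture library A was the nearest to the alone group. Pck2, the mitochondrial phosphoenolpyruvate carboxykinase, averaged 54.2 ± 1.8 CPM in coculture and 87.8 ± 11.6 CPM alone. Chst10, a carbohydrate sulfotransferase, averaged 43.5 ± 3.26 CPM in coculture and 67.1 ± 4.52 CPM alone. Of the remaining genes, Mlycd acts on malonyl-CoA and Acad10 is named as an acyl-CoA dehydrogenase. Mlycd averaged 9.73 ± 0.885 CPM in coculture and 15.1 ± 1.36 CPM alone, and Acad10 averaged 6.38 ± 0.265 CPM in coculture and 10.6 ± 0.681 CPM alone.

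mt-Co2, a mitochondrially encoded subunit of cytochrome c oxidase, met the rule through 1 library. It was at 30.4, 29.2 and 31.6 CPM in coculture, against 28, 77.4 and 34.2 CPM alone. Alone library B stood apart, and the other 2 alone libraries lay on either side of the cocultured ones. Without alone library B the log2 ratio was -0.03, the gene was no longer a member and edgeR no longer called it, leaving 53 members called. mt-Co1 averaged 7188 ± 271 CPM in coculture and 7646 ± 412 CPM alone and was called lower (edgeR adjusted p = 0.034). mt-Co3 averaged 31.4 ± 5.26 CPM in coculture and 34.6 ± 4.19 CPM alone and did not pass the test (edgeR adjusted p = 0.26). Nuclear genomes carry copies of mitochondrial sequence, and the counting of reads that match both is not described in the sources at hand. All mitochondrial genes together took 1.34% to 1.41% of counts in coculture and 1.55% to 1.75% alone.

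6 members were placed in a class of interferon-named and little-studied genes, Slfn3 and Ndrg4 only loosely. Ifi27, an interferon-inducible gene, was at 42.7, 44.8 and 41.5 CPM in coculture, against 76.7, 71.5 and 74 CPM alone. Its groups lay well apart. Slfn3, of the Schlafen family, averaged 11.9 ± 0.575 CPM in coculture and 19.2 ± 0.483 CPM alone. Its relatives Slfn4 and Slfn2 were higher in coculture, Slfn4 at 1201 ± 64.4 CPM in coculture and 650.2 ± 12 CPM alone (edgeR adjusted p = 1.21e-15) and Slfn2 at 184 ± 5.75 CPM in coculture and 144 ± 5.55 CPM alone (edgeR adjusted p = 1.16e-06). Schlafen genes are close copies of one another, so reads could have been divided between them.

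Ndrg4, of the N-myc downstream-regulated family, averaged 53 ± 2.21 CPM in coculture and 81.9 ± 4.36 CPM alone. N4bp2l1 averaged 16 ± 0.903 CPM in coculture and 26.9 ± 2.3 CPM alone. B630019K06Rik averaged 12 ± 1.11 CPM in coculture and 18.1 ± 1.2 CPM alone. The last of the class is D630023F18Rik, whose neighbour on chromosome 1 is also a member. D630023F18Rik averaged 6.87 ± 0.611 CPM in coculture and 10.6 ± 0.651 CPM alone and ends 35.4 kb from Idh1, with no protein-coding gene between them.

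**Figure D3:**
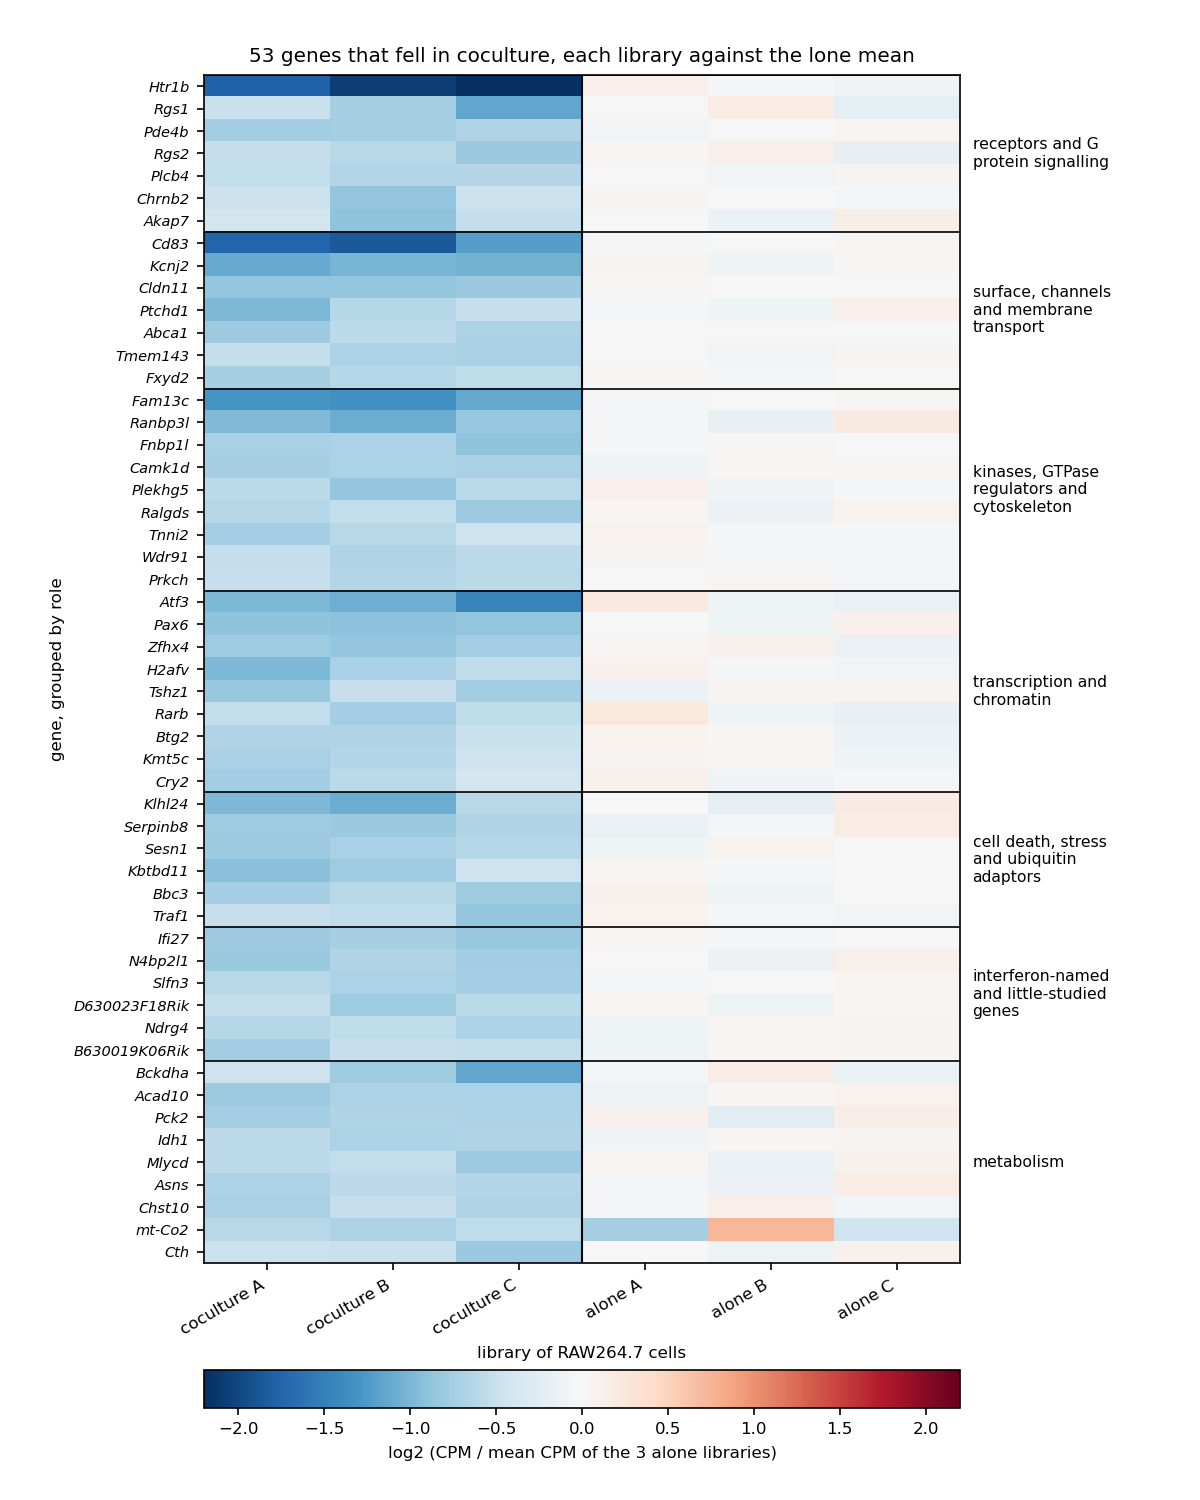
log2 of each library's CPM over the mean CPM of the 3 alone libraries for 53 of the 54 members (rows, grouped by role) in the 3 cocultured libraries (left) and the 3 alone libraries (right); blue is below the alone mean and red above it. All rows are blue in all cocultured libraries, darkest for Htr1b and Cd83, and mt-Co2 is red in alone library B and blue in the other 2 alone libraries.

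Around the ratio limit the members passed without a gap into genes that were not chosen. The 3 just inside, Cry2, Prkch and Cth, had ratios of 0.668, 0.669 and 0.669. Those just outside were Cyb5a (0.6704), Ptpro (0.671) and Fads2 (0.673). Cyb5a, an electron carrier for lipid desaturation, was at 83.7, 79.6 and 74.9 CPM in coculture, against 119, 118 and 119 CPM alone. Ptpro, a receptor tyrosine phosphatase, was at 26.5, 23.5 and 27.4 CPM in coculture, against 38.7, 38 and 38.7 CPM alone. Fads2, a fatty acid desaturase, was at 187, 190.5 and 187 CPM in coculture, against 284, 284 and 272 CPM alone. These genes had groups as far apart as those of the members just inside.

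12 further lists held no member. The lists with more genes called higher were glycolysis and hypoxia genes (19 higher and 1 lower of 30), macrophage identity genes (14 and 7 of 28), ID factors with TGF-beta and BMP targets (11 and 1 of 14), glycosphingolipid and glycan enzymes (11 and 2 of 20), myeloid transcription factors (11 and 9 of 41), chaperones outside the HSPA family (8 and 0 of 27) and WNT targets (4 and 0 of 6). Lists with more genes called lower were nucleolar and ribosome biogenesis genes (0 higher and 13 lower of 34), sterol and fatty acid synthesis genes (3 and 13 of 32), G1/S and S-phase genes (6 and 9 of 40), G2/M genes (2 and 8 of 31) and osteoclast differentiation genes (5 and 7 of 20). For the 3 counts of 0 by edgeR, DESeq2 also called 0, and at an unadjusted p under 0.05 edgeR gave 0 lower chaperones, 0 lower WNT targets and 2 higher nucleolar genes. Over all 20 lists, 522 genes that are not members were tested, of which 188 (36.0%) were called higher and 107 (20.5%) lower. Each of the 8 lists with a member, other than the ATF4 list, had more of its other genes called higher than lower. Members, all lower by the rule, are not in these counts. Over all genes tested, 21.7% were called higher and 15.2% lower. The direction of the lean is thus not particular to these lists, but both shares were larger among the list genes.

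**Figure D4:**
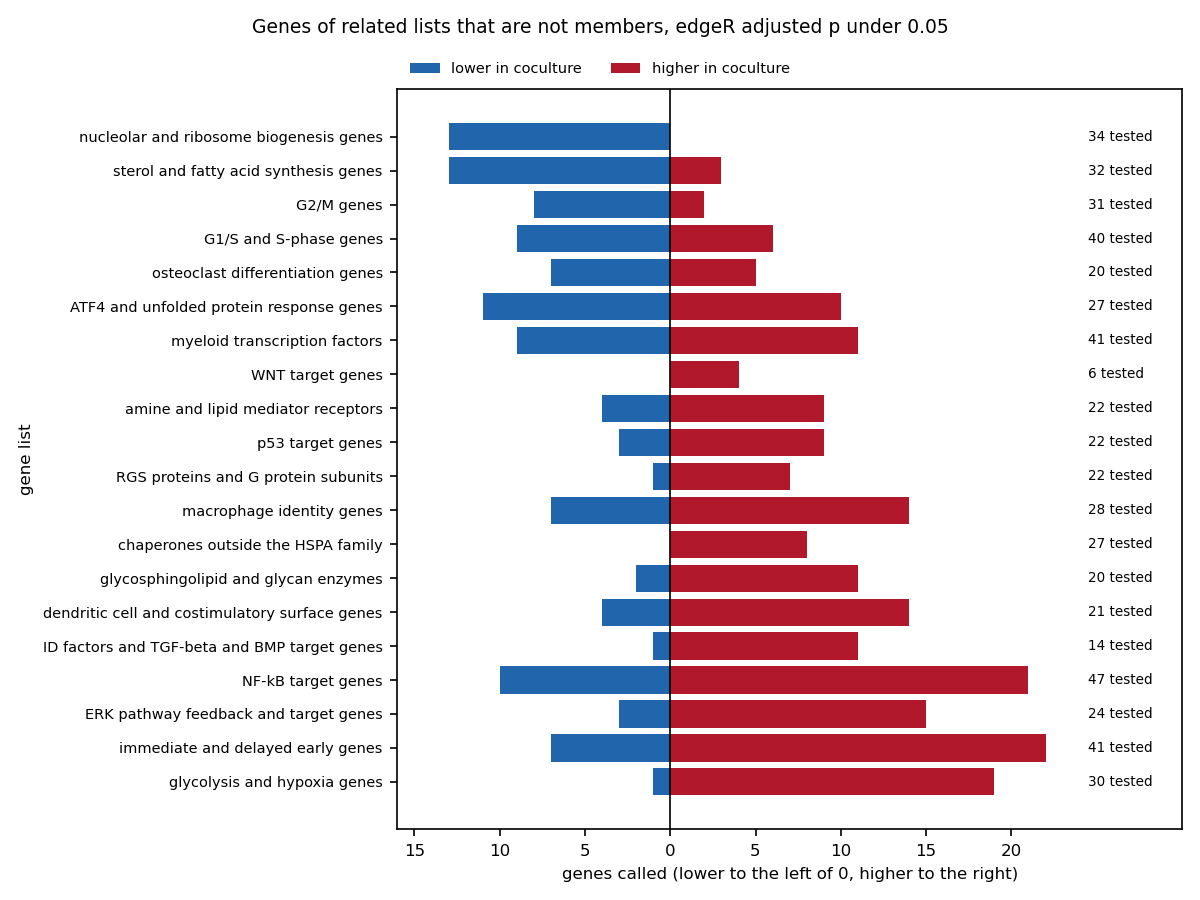
Number of genes called lower (blue, left of 0) and higher (red, right of 0) in coculture by edgeR at an adjusted p under 0.05, for the genes of 20 lists that are not members, with the number tested at the right. Nucleolar genes had 13 called lower and 0 higher, and early genes, where 4 members lie, had 7 called lower and 22 higher.

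The genes most like the 3 lowest members across the 6 libraries were found by Pearson correlation of log2(CPM + 1), as a description. Htr1b was most like Zfp638, Aldh16a1 and Ppp1r15b (r of 0.999 for each), of which Aldh16a1 had the lowest ratio, 0.705. Cd83 was most like Mcl1 (r = 0.999), Stk11ip (0.999) and Clasp1 (0.997), with ratios of 0.761, 0.693 and 0.849. Fam13c was most like Slc5a3 (r = 0.999), Slc6a12 (0.999) and Rusc2 (0.998), with ratios of 0.447, 0.582 and 0.696. Slc5a3 and Slc6a12 take up the osmolytes inositol and betaine. None of these 9 genes is a member, and with 2 groups of libraries most of any such r comes from the difference between the groups.

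The members' median span was 26.7 kb and the median exonic length 4760 bases, against 25.3 kb and 4695 bases for the other genes at the floor. The median number of exons was 8 in members and 10 in the others. 3 members have a single exon (mt-Co2 and B630019K06Rik among them), 5.56%, against 1.2% of the others. Chromosome 1 held 8 members, 14.8% of the set, against 5.89% of genes at the floor, among them the neighbouring pairs described above. Exons of 13 members overlap another gene's exons, and for 2 of them, Rarb and Chrnb2, the other gene was at or above 1 CPM in either group.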

How the data were processed

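RNA of 6 libraries of RAW264.7 cells was read after poly-T selection and random-hexamer priming on a NovaSeq X Plus, per the labels' protocols. The authors deposited 1 table of raw read counts per gene and 1 of FPKM values. Per the submitters' processing notes, which give no order or role, the tools were edgeR 3.22.5, DESeq2 1.20.0, featureCounts 1.5.0-p3 and HISAT2 2.0.5, and the genome build was mm10; strand setting, treatment of reads with several matches and the annotation are not given in the sources used here. The name of the FPKM table carries another cell label than that of the count table, but its columns carry the same library numbers. The deposited FPKM values matched FPKM computed from the deposited counts, the file's gene lengths and the column totals to a factor of 0.996 to 1.004 in each library, and were used for levels per length. Column totals (no rows without a gene) gave CPM.

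The members follow a rule on the counts, and they, the lists and the tests were chosen with earlier results of these data known. Background and list calls come from edgeR 4.0.16 (TMM, filterByExpr, quasi-likelihood F test, group as the only term, Benjamini-Hochberg adjustment over 12972 genes, threshold 0.05) in R 4.3.3, tested on simulated counts first. Alternatives were DESeq2 1.42.0, other filters, scaling and limits, the replicate letter as a block and each library left out. By the naming rule members are named (1 is not reported here), with each library's value for the 15 lowest ratios, the 5 highest levels, list members and those next to the limit; of lists with a member, up to 2 other called genes that reached 5 CPM and changed most are named. Genes named as relatives, overlapping genes or neighbours of a member were chosen after their values were seen. Roles were assigned by hand. Gene IDs matched GENCODE M21 for 54409 genes, with equal coordinates for 98.33% of them and for 52 of the 54 members. Promoters came from RefSeq (GRCm38.p6); 15 members without an entry were not searched. With 3 libraries a group, an exact permutation test could not go below p = 0.1 and none was made.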

Additional observations from a re-analysis of the deposited data

How the results depend on the processing

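The set of 54 depends on its limits. A ratio limit of 0.5 gave 5 genes and one of 0.75 gave 183. A floor of 5 CPM gave 67 genes, a floor of 20 CPM gave 37, and TMM or DESeq2 scaling gave 56 each, with all 54 among them. Leaving out 1 library gave 52 to 60 genes, of which 44 to 50 were among the 54, and 33 members met the rule whichever library was left out. Every one of the 486 recomputed log2 ratios of the 54 members stayed below 0, mt-Co2 without alone library B at -0.03 included. All were also within 1 SD of the reported value (SD from the spread between libraries), but neither outcome says much. The rule had set the sign, and leaving out 1 library moves a mean by little beside that SD. For mt-Co2 the SD was 0.78, mostly from alone library B itself. edgeR called 1974 genes lower and 2819 higher. DESeq2 called 1468 lower and 2727 higher, and leaving out 1 library gave 1557 to 1767 lower and 2586 to 2837 higher. The members called lower were 53 in DESeq2, without alone library B and without coculture library A, mt-Co2 being lost in each.

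Libraries with the same letter did not deviate together (correlations of 0.0014, 0.020 and 0.035), so the letters are taken as names. With the replicate block, 1951 genes were called lower and 2815 higher. Of list genes that are not members, 93 to 110 were called lower and 171 to 192 higher over all alternatives. Single lists moved by over 1.5 times at these counts: lower early genes were 4 in DESeq2, lower nucleolar genes were 8 without coculture library C, higher G2/M genes were 1 in DESeq2 and without either alone library B or C or coculture library A or B, higher nucleolar genes were 1 or 2 in 6 alternatives, and lower chaperones were 1 without alone library A. Depth limits the least abundant members most: Bckdha had 282 counts in the 3 cocultured libraries together and 504 in the 3 alone libraries.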
